A study of Mus musculus with 4 samples.

Results

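The complement cascade with adipsin was followed here through 37 mouse genes, taken by symbol and grouped by their place in the cascade: classical, lectin, alternative and terminal arms, receptors and inhibitors. Of the 37 genes, 36 had a probe on the array, among 31709 genes in all, and 35 were bright enough to be tested. C4a, the second C4 gene of the mouse, had no probe of its own. C5ar1, a receptor for the C5a fragment, was well above background in 0 IlrunKO channels and 1 WT channel and was not tested. Complement genes were measured in 4 IlrunKO and 4 wild-type (WT) liver RNA samples, all from male C57BL/6 mice on chow and fasted for 4 h, and whether mice were pooled is not stated. IlrunKO animals carry a knockout of Ilrun, a regulator of inflammatory signalling and lipid metabolism, and how the allele was made is not given in the labels. Each of 4 two-colour arrays held 1 IlrunKO and 1 WT liver, with IlrunKO in Cy5 on arrays 1 and 2 and in Cy3 on arrays 3 and 4. Ratios are log2 of IlrunKO over WT, and errors are SD over the 4 arrays unless stated.

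Complement is a set of plasma proteins, most of them made by hepatocytes, that mark microbes and damaged cells. C1q or the lectins recognise a surface and switch on proteases that cleave C4 and C2, while in the alternative arm factor D (adipsin, encoded by Cfd) cleaves factor B. Both routes build enzymes that cleave C3 and then C5, and the late components assemble a pore in the target membrane. C1q and the receptor Vsig4 are made in the liver mainly by Kupffer cells, the resident macrophages, and adipsin is best known as a product of adipocytes.

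The probes below are 60-base oligonucleotides of the array, printed 5′ to 3′ in lower case with mm9 positions from the files. Cfd is shown as the gene for adipsin, Cfb because factor B is the substrate of adipsin, Masp1 because 2 probes measured it, and C6 because its IlrunKO and WT levels did not overlap.
Cfd, chr10:79355302-79355361, plus strand: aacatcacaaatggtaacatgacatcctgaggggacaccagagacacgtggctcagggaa
Cfb, chr17:34993502-34993858, minus strand: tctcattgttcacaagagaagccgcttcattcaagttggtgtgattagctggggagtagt
Masp1 (dimmer of its probes), chr16:23452460-23452519, minus strand: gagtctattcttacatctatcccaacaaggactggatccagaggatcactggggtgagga
C6, chr15:4748363-4748422, plus strand: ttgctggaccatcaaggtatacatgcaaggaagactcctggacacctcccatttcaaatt
The interval given for Cfb is longer than its probe. Exons were not assigned, since no annotation of that build was used.

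The knocked-out gene was checked first. The brighter Ilrun probe had a log2 ratio of -4.21 ± 0.24 and the dimmer one of -2.15 ± 0.34 (n = 4 arrays), with an adjusted p of 0.0033 for the gene in limma. Between 60% and 67.3% of probes were well above background, and all arrays came from 1 slide and 1 scan. Of 19658 genes tested, 269 passed an adjusted p of 0.05, which is 1.37%. In bulk liver, a change in the number of cells of a type and a change in RNA per cell cannot be told apart.

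Among complement genes, Cfd rose in IlrunKO livers and the other 34 tested genes did not pass. The 1 upward call among 35 stood against 0.712% of all genes called upward, and 0 complement genes passed downward, against 0.656% of all genes. At an unadjusted p under 0.05 there were 8 of 35 genes (22.9%), close to 20.5% of all genes tested. The ratio had the same sign on every array for 8 of 35 genes (22.9%, against 23.4% of all genes). IlrunKO and WT levels did not overlap for Cfd, Colec11, Masp1, C6 and Clu, which is 14.3% of the tested complement genes, against 9.07% of all genes.

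The spread between arrays was wide for these genes. Their median SD of the ratio was 0.34, against 0.148 over all genes tested, and 30 of 35 lay above that overall median. A wide spread was not particular to them. The median SD was 0.39 for hepatocyte markers, 0.43 for Kupffer cell markers, 0.86 for acute phase genes and 0.34 for adipocyte markers. Lower values were 0.31 for neutrophil and monocyte, 0.21 for stellate and fibroblast and 0.18 for endothelial markers, and 0.19 for further complement genes. The median ratio over the 35 genes was 0.052, against -0.002 over all genes, with 24 genes above 0 and 11 below. Mean ratios lay within 0.5 of 0 for 33 of 35 genes, the exceptions being Cfd and Hc.

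**Figure D1:**
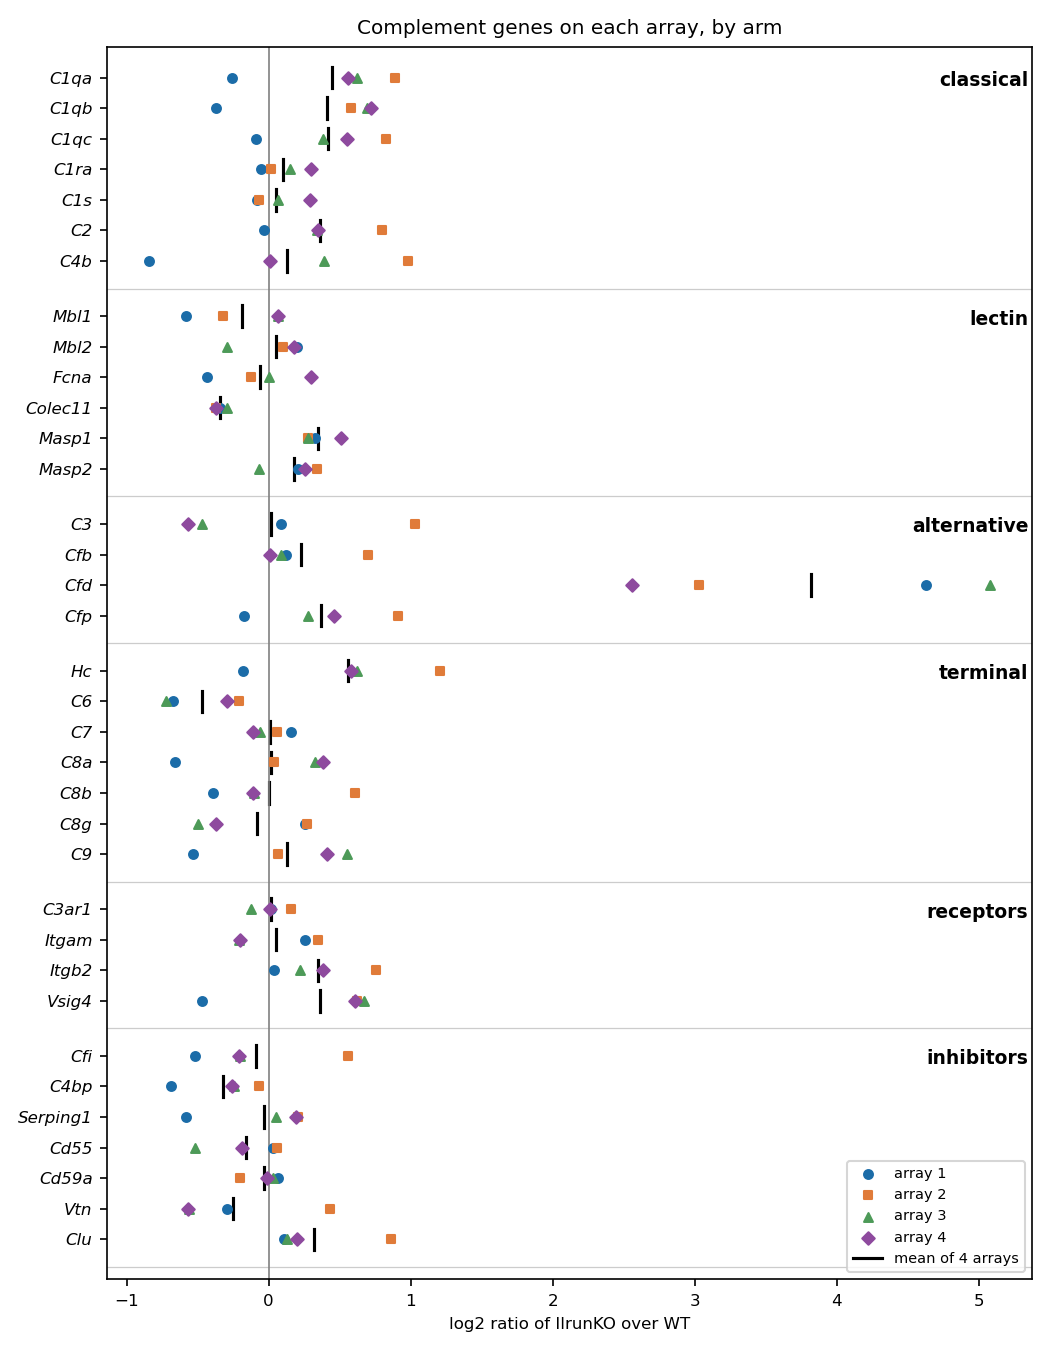
Log2 ratio of IlrunKO over WT (x axis) for the 35 tested complement genes (rows, by arm). Points are the 4 arrays and black bars their means. Cfd lies between 2.56 and 5.08, apart from the other genes, and many others have array 1 (circles) on the opposite side of 0 from array 2 (squares).

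In the alternative arm, Cfd, the protease that cleaves factor B, had log2 levels of 11.49, 11.17, 12.13 and 10.23 in IlrunKO livers, against 6.86, 8.15, 7.05 and 7.68 in WT livers. Every IlrunKO liver was above every WT liver, and the probe was well above background in all 8 channels. The ratio was 3.82 ± 1.22, a 14.2-fold higher level (95% interval of the log2 ratio 2.57 to 5.08, adjusted p = 0.0465 in limma), the highest ratio of the 19658 genes tested. By array the difference was 24.7-fold, 8.15-fold, 33.9-fold and 5.88-fold. The larger folds were on arrays 1 and 3, where the WT level was lowest, at 6.86 and 7.05. Those levels were not far above the 6.38 to 6.51 of C7, a dim gene, in WT livers, so the fold rests on a low WT signal. The mean ratio was alike in both dye orientations, at 3.83 on arrays 1 and 2 and 3.82 on arrays 3 and 4. The call stood close to the threshold: it was lost without array 1 (3.42, adjusted p = 0.0506), array 3 (3.19, adjusted p = 0.162) or array 4 (4.45, adjusted p = 0.127), while the ratio stayed between 3.19 and 4.84 under every alternative run. The fold moved with these choices, to 22.8-fold with a normexp offset of 0, 28.6-fold with Agilent's processed signals, 9.14-fold without array 3 and 21.9-fold without array 4. Without array 3 or without array 4, only 1 of the 269 genes called with all arrays still passed, so the loss there was not particular to Cfd. The Cfd call rests on 1 probe.

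Adipocyte markers moved with Cfd in part. Of 12 markers, 9 were tested and 1 (11.1%) passed, against 1.37% of all genes, and 8 of 9 (88.9%) had an unadjusted p under 0.05, against 20.5%. The gene that passed was Adrb3, the beta-3 adrenergic receptor, at 1.04 ± 0.34 (adjusted p = 0.0301). The lipid droplet genes Cidec and Plin4 averaged 1.53 ± 0.58 (adjusted p = 0.0546) and 1.55 ± 1.18 (adjusted p = 0.0863), and Pparg, a regulator of fat storage, 0.69 ± 0.36 (adjusted p = 0.0994). The adipocyte-defining genes Adipoq, Lep and Plin1 were well above background in 0 channels, and Fabp4, a fatty acid carrier of adipocytes, averaged -0.11 ± 0.15. Lpl, lipoprotein lipase, averaged -0.34 ± 0.63 (adjusted p = 0.0681) and counts among the 8. Its ratios were 0.27 and 0.14 on arrays 1 and 2 and -0.81 and -0.95 on arrays 3 and 4, so its signs followed the dye orientation. Cidea, Lipe and Retn averaged 0.42, 0.21 and 0.14. Retn counts among the 8, though it was well above background in 3 IlrunKO and only 2 WT channels. It therefore passed the brightness filter through its IlrunKO channels alone. Signal was low for Retn (6.2 to 6.58 over all channels), Lipe (6.78 to 7.14) and, in WT livers, Cidea (6.29 to 6.51). The summed intensity of the 9 tested markers was 6400 to 11600 in IlrunKO livers and 4480 to 5510 in WT livers, without overlap. Plin4 was the brightest of the 9 in every IlrunKO liver, at 11.52, 10.68, 12.57 and 12.12, and so weighed most in the sum there.

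**Figure D2:**
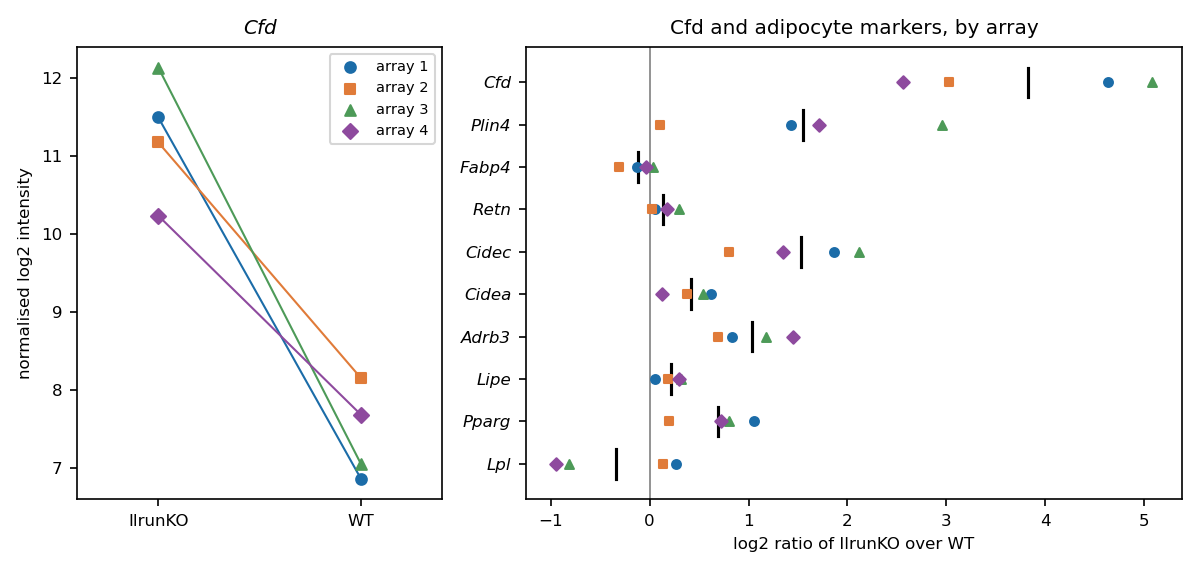
Left, normalised log2 intensity of Cfd in IlrunKO and WT livers, with lines joining the pair on 1 array. Right, log2 ratio of IlrunKO over WT for Cfd and the 9 tested adipocyte markers (points, arrays; bars, means). All IlrunKO values of Cfd exceed all WT values, and Cfd has the highest mean of the genes drawn.

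The remaining alternative-arm genes did not pass. Cfb, factor B, had log2 levels of 15.73, 15.96, 15.76 and 15.67 in IlrunKO livers, against 15.61, 15.26, 15.67 and 15.65 in WT livers. Its ratio was above 0 on every array, but the groups touched at 15.67, and the mean of 0.23 ± 0.32 did not pass (adjusted p = 0.297). C3, the component on which all arms converge, had ratios of 0.09 and 1.03 on arrays 1 and 2 and of -0.47 and -0.57 on arrays 3 and 4. These signs followed the dye orientation, and the mean was 0.02 ± 0.73 (adjusted p = 0.968). The second C3 probe averaged 0.03 ± 0.34. Its ratios were -0.26, 0.45, 0.14 and -0.23 on arrays 1 to 4, and their signs did not follow the dye orientation. Cfp, properdin, which stabilises the alternative convertase, averaged 0.37 ± 0.44 (adjusted p = 0.333).

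In the classical arm, 0 of 7 tested genes passed, and the direction differed between arrays. All 7 were below 0 on array 1, while 6, 7 and 7 of them were above 0 on arrays 2, 3 and 4. C1qb, a C1q subunit, had levels of 10.14, 10.23, 10.33 and 10.39 in IlrunKO livers, against 10.50, 9.66, 9.64 and 9.67 in WT livers. The WT liver of array 1 was the highest of all 8, and the other WT livers were below every IlrunKO liver. C1qc had levels of 10.86, 11.32, 11.12 and 10.97 in IlrunKO livers, against 10.96, 10.49, 10.73 and 10.42 in WT livers. Here the WT liver of array 1 lay inside the IlrunKO range. C1qa, C1qb and C1qc averaged 0.45 ± 0.50, 0.41 ± 0.52 and 0.42 ± 0.39 (adjusted p = 0.279, 0.247 and 0.236).

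C2, the protease partner of C4, had levels of 14.00, 14.60, 14.31 and 14.38 in IlrunKO livers, against 14.04, 13.80, 13.97 and 14.03 in WT livers. Only the IlrunKO liver of array 1 lay within the WT range, and the mean ratio was 0.36 ± 0.34 (adjusted p = 0.245). C4b, which encodes C4, spread most in this arm, with ratios of -0.84, 0.98, 0.39 and 0.01 and a mean of 0.13 ± 0.76. The C1 proteases C1ra and C1s averaged 0.10 ± 0.15 and 0.05 ± 0.17. C4b, C1ra and C1s have close relatives in the mouse genome whose RNA may bind the same probes. C2, Cfb, C4b and C3 lie on chromosome 17, as Ilrun does. The C4b probe starts at 34865328, the C2 probe at 34999575 and the brighter C3 probe at 57343416 (mm9), and the brighter Ilrun probe at 27888506.

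Markers of Kupffer cells were likewise lowest on array 1 and highest on array 2. Their medians were -0.127, 0.824, 0.381 and 0.455 on arrays 1 to 4, beside -0.263, 0.834, 0.616 and 0.558 for the C1q subunits, and 0 of 13 markers passed. Of the markers, 12 averaged above 0, and 9 of 13 (69.2%) had an unadjusted p under 0.05, against 20.5% of all genes. Their summed intensity was 37000 to 56100 in IlrunKO livers and 28100 to 43600 in WT livers. The acute phase genes, which hepatocytes switch on in inflammation, had medians of -1.143, 1.116, 0.253 and -0.059, with 0 of 12 passing. Their part in the complement values was not tested.

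The opposite sign of array 1 was counted after the values were seen. Below 0 on array 1 and above 0 on arrays 2 to 4 were 12 of 35 complement genes (34.3%), against 6.06% of all genes: C1qa, C1qb, C1qc, C1ra, C2, C4b, Cfp, Hc, C8a, C9, Vsig4 and Serping1. Without array 1, 9 complement genes passed, all higher in IlrunKO livers (C1qa, C1qb, C1qc, C2, Cfp, Clu, Hc, Itgb2 and Vsig4), among 2.37% of all genes, and Cfd did not. The ratios of those 9 lay between 0.51 for Clu and 0.91 for Hc. Without array 2, 0 of the same 9 passed, with ratios of 0.08 for Vsig4 to 0.21 for Hc and a smallest adjusted p of 0.242, and Cfd was the complement gene called, among 1.31% of all genes.

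**Figure D3:**
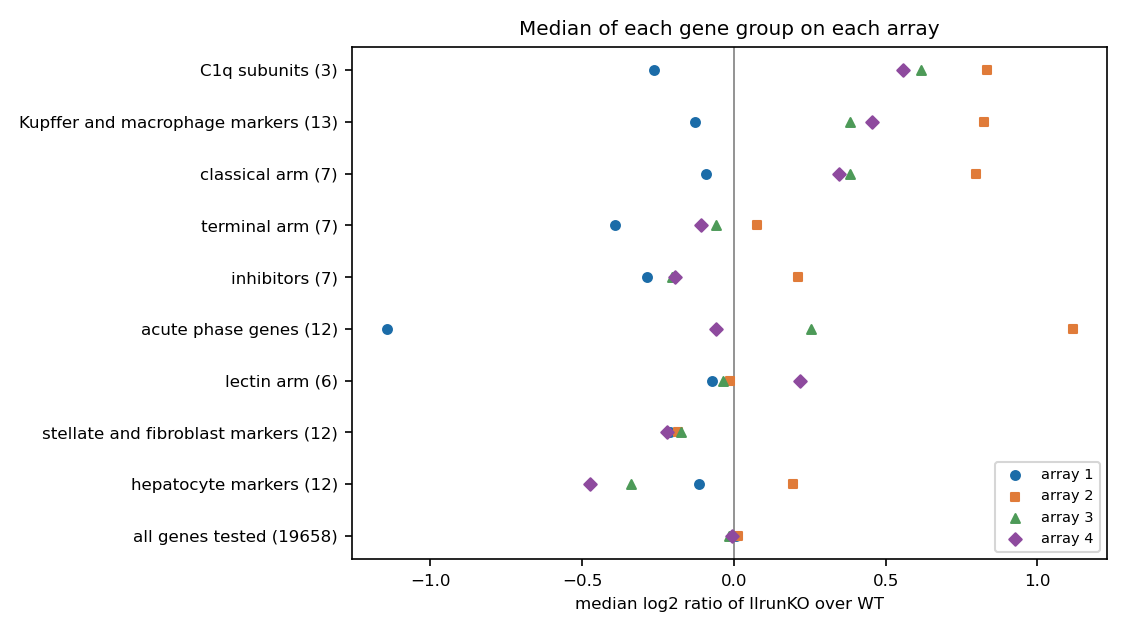
Median log2 ratio of IlrunKO over WT (x axis) for complement arms and marker lists (rows, number of tested genes in brackets) on each of the 4 arrays (points). C1q subunits and Kupffer markers are both lowest on array 1 and highest on array 2, and the acute phase genes run from -1.143 on array 1 to 1.116 on array 2.

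In the lectin arm, 0 of 6 genes passed. Colec11, a collectin that binds sugars on microbes, had levels of 11.24, 11.04, 11.38 and 11.25 in IlrunKO livers, against 11.58, 11.41, 11.67 and 11.62 in WT livers. Every IlrunKO liver was below every WT liver, and the ratio was -0.34 ± 0.04, just short of the threshold (adjusted p = 0.0527). Markers of stellate cells and fibroblasts averaged below 0 for 12 of 12 genes, against 9972 of 19658 over all genes. Of the 12, 0 passed and 10 (83.3%) had an unadjusted p under 0.05, against 20.5% of all genes. Their summed intensity was 23400 to 34100 in IlrunKO livers and 35300 to 36300 in WT livers. Dcn and Ecm1, by far the brightest of the list, carried most of that sum, and each overlapped between genotypes. Levels did not overlap for 3 of the 12 genes (25%), against 9.07% of all genes. The part of these markers in the Colec11 value was not tested.

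Masp1, a lectin-arm protease, had levels of 12.61, 12.64, 12.70 and 12.69 in IlrunKO livers, against 12.28, 12.35, 12.43 and 12.17 in WT livers. The groups did not overlap, and the ratio of 0.35 ± 0.11 did not pass (adjusted p = 0.0736). These values are from the brighter probe. The dimmer one, whose sequence is printed above, averaged 0.23 ± 0.05, and its levels overlapped (8.77 to 9.19 in IlrunKO livers, 8.55 to 8.93 in WT livers). Masp2, which cleaves C4 and C2, averaged 0.18 ± 0.18. Of the mannose-binding lectins, Mbl1 averaged -0.19 ± 0.32 (adjusted p = 0.191) and Mbl2 0.05 ± 0.23, and the ficolin Fcna averaged -0.06 ± 0.30.

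In the terminal arm, 0 of 7 genes passed. C6, which joins the membrane attack complex after C5b, had levels of 11.44, 11.48, 11.19 and 11.67 in IlrunKO livers, against 12.12, 11.70, 11.91 and 11.96 in WT livers. The highest IlrunKO liver was just below the lowest WT liver, and the ratio was -0.47 ± 0.26 (adjusted p = 0.116). Hc, the mouse gene for C5, had levels of 15.80, 16.30, 16.16 and 16.19 in IlrunKO livers, against 15.98, 15.09, 15.55 and 15.61 in WT livers. The pair of array 1 ran opposite to the others, and the ratio was 0.56 ± 0.57 (adjusted p = 0.266).

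The pore components C8a, C8b, C8g and C9 averaged 0.02 ± 0.48, 0.00 ± 0.42, -0.08 ± 0.40 and 0.13 ± 0.48. Each had arrays on both sides of 0. C7 was dim, well above background in 3 of 4 channels of each genotype, and averaged 0.01 ± 0.12.

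**Figure D4:**
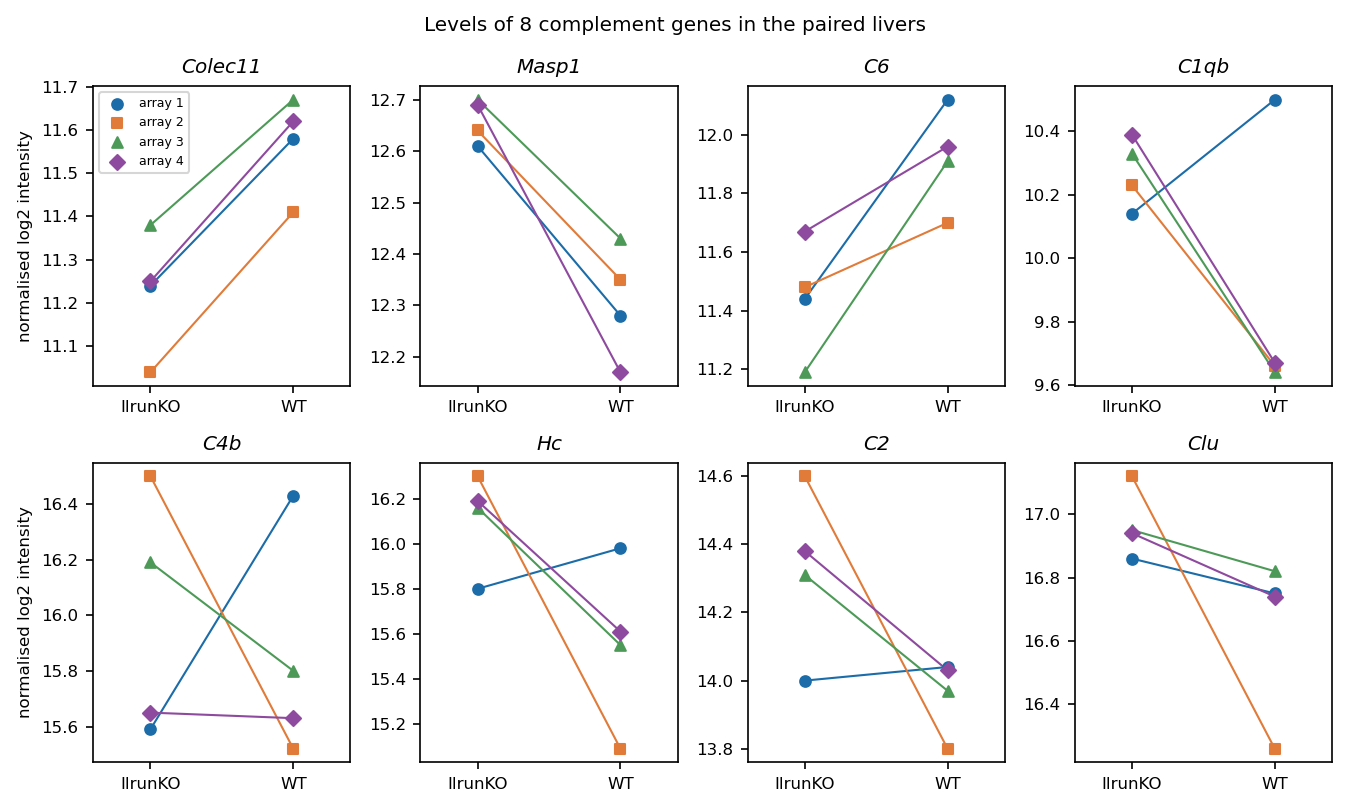
Normalised log2 intensity (y axis, a scale of its own in each panel) of 8 complement genes in IlrunKO and WT livers, with lines joining the pair on 1 array. Colec11, Masp1, C6 and Clu show no overlap, while the array 1 pair (circles) runs opposite to the others for C1qb, C4b, Hc and C2.

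Of 4 tested receptors, 0 passed. Itgb2, the beta chain of complement receptors on leukocytes, had levels of 7.80, 8.47, 8.07 and 8.41 in IlrunKO livers, against 7.76, 7.71, 7.85 and 8.04 in WT livers. Its ratio was above 0 on every array, the groups overlapped, and the mean of 0.35 ± 0.31 did not pass (adjusted p = 0.228). Vsig4, a Kupffer cell receptor for C3 fragments, had levels of 11.87, 12.42, 12.33 and 12.25 in IlrunKO livers, against 12.34, 11.80, 11.66 and 11.64 in WT livers. As for C1qb, the pair of array 1 ran the other way, and the ratio was 0.36 ± 0.56 (adjusted p = 0.353). By its brightest probe, Itgam, the partner chain of Itgb2, averaged 0.05 ± 0.30, with signs that followed the dye orientation. That probe holds a run of CA repeats and read 9.24 to 9.86. The other Itgam probes read 6.48 to 6.81 and averaged 0.06 ± 0.10 and -0.03 ± 0.09. Whether the brightest probe measured Itgam alone was not tested. C3ar1, the C3a receptor, averaged 0.02 ± 0.11 and was dim, at 6.67 to 6.82 in every channel.

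Of 7 inhibitors, 0 passed, and 6 averaged below 0. C4bp, a cofactor for cleavage of C4b, had levels of 14.20, 14.95, 14.64 and 14.63 in IlrunKO livers, against 14.89, 15.02, 14.88 and 14.89 in WT livers. Only the IlrunKO liver of array 2 reached the WT range, and the ratio was -0.32 ± 0.26 (adjusted p = 0.207). Clu, clusterin, which binds terminal complexes, had levels of 16.86, 17.12, 16.95 and 16.94 in IlrunKO livers, against 16.75, 16.26, 16.82 and 16.74 in WT livers. The groups did not overlap, but array 2 alone gave 0.86 and the mean of 0.32 ± 0.36 did not pass (adjusted p = 0.254). Cfi, Serping1, Cd55, Cd59a and Vtn, which restrain the convertases, C1 or the pore, averaged between -0.25 for Vtn and -0.03.

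Among 25 further complement genes outside the 37, 20 were tested and 0 passed, with 8 (40%) at an unadjusted p under 0.05, against 20.5% of all genes. The smallest p belonged to C1rl, a C1r-like protease (-0.42 ± 0.16, adjusted p = 0.0640), and Susd4, a complement regulator (0.56 ± 0.27, adjusted p = 0.0736). The median ratio of the 20 genes was 0.054, against -0.002 over all genes.

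Both the threshold and the error model moved calls. At an adjusted p of 0.10, Cfd, Colec11 and Masp1 passed, among 5.73% of all genes. A separate-channel fit, which models both channels of an array and their correlation, called Cfd, Colec11, Masp1 and C6, among 12.7% of all genes.

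**Figure D5:**
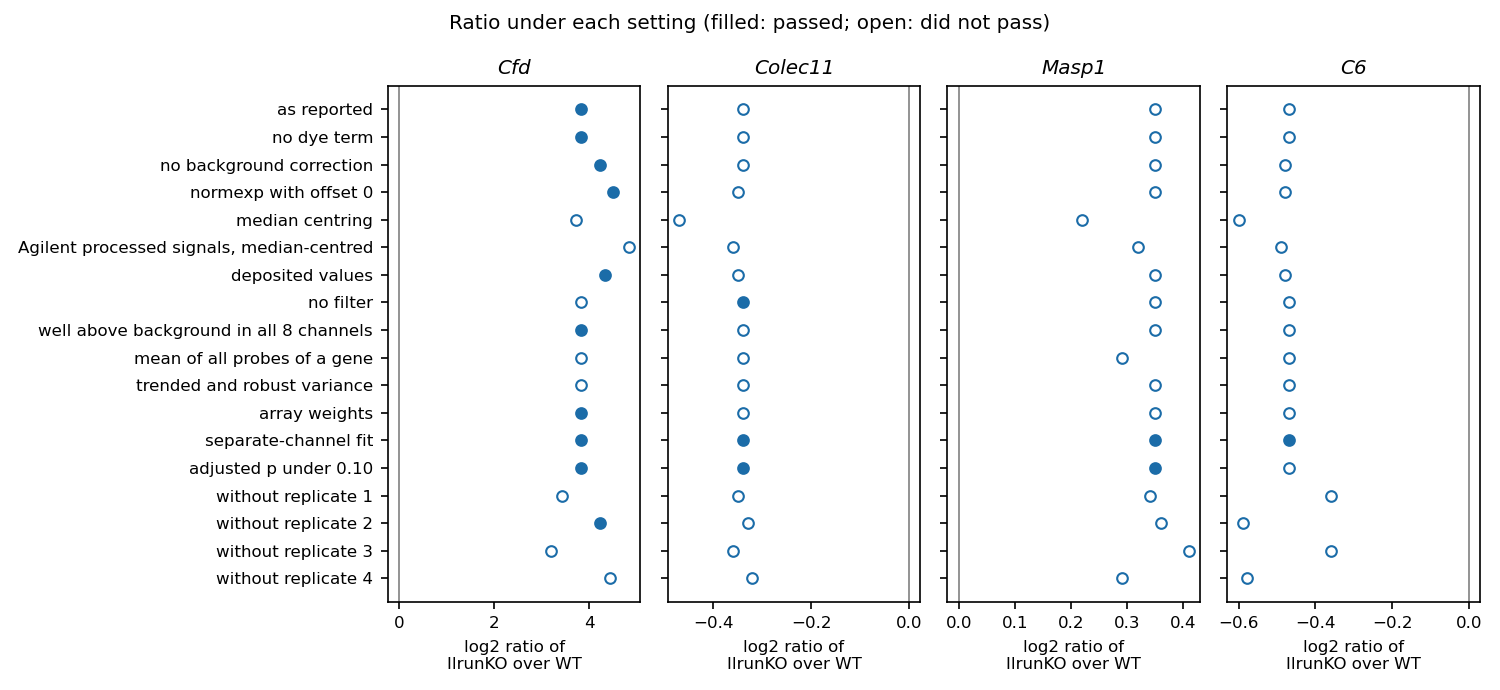
Log2 ratio of IlrunKO over WT (x axis, a scale of its own in each panel) for Cfd, Colec11, Masp1 and C6 under each setting (rows). Filled points passed the adjusted p threshold and open points did not. The direction is the same in every row, with Cfd between 3.19 and 4.84.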

How the data were processed

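Per the file headers, the scanner files were made with Feature Extraction 10.10.1.1. The authors deposited in them raw and processed intensity, and a log10 ratio of the red (Cy5) channel over the green. A second deposited table holds log2 values, which run as IlrunKO over WT on every array when set against the scanner ratios (r = 0.956, 0.943, -0.942 and -0.951 on arrays 1 to 4). The submitters' processing notes name limma, and its settings were not given in the sources used here.

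Raw intensity was background-corrected (normexp, offset 50) and loess-normalised within arrays in limma 3.58.1 (R 4.3.3), leaving out control and outlier spots; levels come from the same values after Aquantile scaling. The brightest probe stood for a gene, kept where well above background in 3 of 4 channels of either genotype and tested where at least 3 arrays had a value. Probes were named through RefSeq (76.5% matched) or kept the files' name. Each gene was fitted with a genotype and a dye term (2 residual degrees of freedom, prior 2.83), and p adjusted by Benjamini-Hochberg over 19658 genes, two-sided. The median 95% interval reached 0.147 either side. The number of arrays limits the precision. Named in each arm were the 2 genes with the smallest p, with C1qb, C4b, C3 and the others added for their role or spread. The printed probes were chosen with their values known. Pooling of mice is not stated, so p-values measure the spread between these samples. Members and lists were chosen with earlier results of these data known. Alternatives covered the dye term, background, normalisation, filter, probe choice, variance model, threshold and each array left out. The values of 1 further complement gene that the naming rule covers are not reported here.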

Additional observations from a re-analysis of the deposited data

Results flagged for a closer look

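Of 124 groups of 4 values, 14 had 1 value standing apart from the other 3 by a gap large against the range of the 4 (Dixon's criterion), where chance gives about 1 in 20. The groups are not independent, since each ratio comes from IlrunKO and WT levels that are also counted, and some gene groups overlap. No excess over chance can therefore be read from this count. On array 1, the ratio of IlrunKO over WT was -0.37 for C1qb (others 0.58 to 0.72) and -0.47 for Vsig4 (others 0.61 to 0.67), and the WT liver stood high for C1qb, at 10.5 (others 9.64 to 9.67), and for Serping1, at 15.36 (others 15.01 to 15.06). On array 2, the ratio was 0.7 for Cfb (others 0.01 to 0.12), 0.86 for Clu (others 0.11 to 0.2) and 0.967 for the median of the alternative arm (others 0.105 to 0.237). The IlrunKO liver of array 2 stood high for C8b, at 14.28 (others 13.64 to 13.71). The WT liver of array 2 stood low for Cfb, at 15.26 (others 15.61 to 15.67), and for Clu, at 16.26 (others 16.74 to 16.82), and high for C4bp, at 15.02 (others 14.88 to 14.89). On array 3, the IlrunKO liver was low for Masp2, at 13.96 (others 14.11 to 14.13), and the WT liver high for C7, at 6.51 (others 6.38 to 6.39). On array 4, the IlrunKO liver was high for Fcna, at 10.18 (others 9.7 to 9.76).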

How the results depend on the processing

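The 12 genes named by the rule kept their direction under all 17 alternatives. Cfd passed in 9 of 17. It missed the threshold with median centring in place of loess (3.73, adjusted p = 0.184), Agilent's processed signals (4.84, 0.0915), no filter (3.82, 0.0508), the mean of all probes (3.82, 0.0515) and a trended, robust variance (3.82, 0.0689). Leaving out 1 array gave 3.19 to 4.45 for Cfd, passing only without array 2, 0 to 9 complement genes called, 1 to 465 of all genes, and 0 to 1 of the other complement genes (Susd4 without array 1). The cause was not tested. Called complement genes numbered 0 with median centring, processed signals, the mean of probes or the trended variance, 3 at an adjusted p of 0.10 and 4 in the separate-channel fit. Without a filter, Colec11 was called in place of Cfd (-0.34, adjusted p = 0.0417). Of all genes, 269 were called, against 440 without background correction, 1 (a fall) with median centring, 61 with processed signals, 449 in the deposited values, 412 with the trended variance, 2485 in the separate-channel fit and 1126 at an adjusted p of 0.10. Other complement genes called numbered 5 in the separate-channel fit and 3 at an adjusted p of 0.10. The median of the complement ratios moved by less than its spread, to between -0.0402 (median centring, which moved the median of all genes to -0.0501) and 0.151 (without array 1). The ratio within each array pairs 1 IlrunKO with 1 WT liver, so pairing is part of every fit on ratios; the separate-channel fit keeps it through the correlation of the channels (0.516). Limits are the 4 arrays, signal near background for C7, and low levels of C3ar1 in every channel (6.67 to 6.82). A further limit is the low WT level of Cfd on arrays 1 and 3 (6.86 and 7.05).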
